A study of Mus musculus with 9 samples.

Results

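Of the 33054 exonic circular RNAs (circRNAs) in a survey of differentiating mouse myoblasts, 631 (1.91%) spanned more than 100 kb of genome between their ends. They were chosen by the deposited type "exon" and by the distance from the first to the last base of the locus, so neither read counts nor time points entered the choice. They came from 227 host genes and held 25486 of the 2679099 back-splice reads (0.951%), against 37751 circRNAs of all types in the table. The cells were C2C12, an established mouse myoblast line derived from skeletal muscle, and 3 libraries were made at each of 3 times, 9 in all. At day 0 the cells were proliferating below confluence in DMEM with 10% fetal bovine serum, and at days 3 and 6 they had spent that time in DMEM with 2% horse serum, which drives myoblasts to become myocytes and fuse into myotubes. No transgene, knockdown or drug is named for any group. Nothing in the labels says that the 3 libraries of a day came from separate cultures, so the tests measure the spread between these libraries, which may be technical.

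A circRNA forms by back-splicing, when the spliceosome joins the 3′ end of an exon (the donor) to the 5′ start of an exon upstream in the same transcript (the acceptor). Introns between those exons are usually removed, so a circle over a very long stretch of genome can be a short RNA, and long introns flanking the circularized exons are a known feature of circRNA hosts. Circles lack free ends and resist exonucleases, and circRNAs are known to change in abundance while C2C12 cells differentiate.

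The back-splice junctions below belong to 8 long circles of Atxn1, Bnc2, Meis2, Ghr and Cdh13, and each is given to show which exons meet. They are examples and not a ranking, since some circles with more reads or with a called change are left out. Each line holds the last 15 bases of the donor exon in lower case and the first 15 bases of the acceptor exon in capitals, 5′ to 3′ on the host's strand, taken from the GENCODE M21 transcripts of GRCm38.
Atxn1 exons 2 to 4, chr13:45795509-45956575, minus strand: aggcaaatggtacagAAGTATCCTGCACCG
Atxn1 exons 2 to 5, chr13:45735115-45956575, minus strand: tgctgttggcagaggAAGTATCCTGCACCG
Atxn1 exons 2 to 6, chr13:45697821-45956575, minus strand: agcatagtgaatgctAAGTATCCTGCACCG
Bnc2 exons 2 to 4, chr4:84390889-84555904, minus strand: ggatacatccttcagGCACGTTTTGTGCCC
Bnc2 exons 2 to 3, chr4:84414246-84555904, minus strand: gctgggtggcacatgGCACGTTTTGTGCCC
Meis2 exons 7 to 9, chr2:115921672-116049198, minus strand: gcaagtgaacaactgAACCCTTCATCCTGG
Ghr exons 2 to 8, chr15:3327974-3458008, minus strand: aagcatgtgaagaagGTCTCAGGTATGGAT
Cdh13 exons 7 to 10, chr8:119095185-119242443, plus strand: acatcaaactatcagGGACCACGGTGATGC
The 3 Atxn1 circles had the same acceptor and differed in the donor, and so did the 2 Bnc2 circles. In such a set the capitals are the same and the lower-case letters change.

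Very long loci gave short predicted RNAs. The spans ran from 100137 to 447179 bp with a median of 138523 bp, against a median of 8929 bp in other exonic circRNAs. Of the 631 loci, 370 were at most 150 kb, 121 exceeded 200 kb, 20 exceeded 300 kb and 4 exceeded 400 kb. Both ends lay at annotated exon edges in 579 (91.8%), and in 548 (86.8%) a single annotated transcript held both edges. In those 548, the exons between the ends added up to a median of 797 nt (range 176 to 4971), against 582 nt in other exonic circRNAs, and 358 of them were under 1000 nt. The median number of exons was 6 (range 2 to 32), against 4. The genome between the ends was thus almost all intron, and the longest intron inside the circle had a median of 70801 bp, against 4093 bp. These lengths follow from the span that chose the circles and carry no test.

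The introns outside the circles, which the span did not use, were long as well. The upstream intron had a median of 32803 bp, against 4796 bp in other exonic circRNAs, and the downstream intron 31310 bp, against 3401 bp. The hosts of long circles are long genes (median 326.755 kb, range 130.508 to 2257.27 kb), and the comparison was not matched on host length. The circle began at exon 2 of the transcript in 221 of 548 (40.3%), against 25.3% of other exonic circRNAs. It began at exon 1 in 7 and ended at the last exon in 0. Only 18 (3.28%) consisted of 2 exons, against 11.8%, and 20 held no coding base of the chosen transcript. Exon numbers depend on which transcript is chosen.

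Averaged over the 9 libraries, the shares of long and of other circles at exon edges were close, but the sign of their difference followed the day. Both ends were at edges for 93.6% ± 3.07 of the long circles listed in a library and for 93.5% ± 0.637 of other exonic ones (SD, n = 9 libraries), a difference of 0.10 percentage points with an exact two-sided sign-flip p of 0.887. At day 0 it was negative in all 3 libraries (-3.45, -3.21 and -1.66 percentage points), and at days 3 and 6 it was positive in 5 of 6 (-0.07 to 3.32). The pooled value therefore averages days that differ in sign, and the difference between days was not tested. Set against other exonic circles of the same 227 hosts (97.2% ± 0.390), the long ones were lower by 3.62 percentage points in 8 of 9 libraries (p = 0.0117, the same exact test). The 9 libraries list many of the same circles and are not fully independent.

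Many long circles shared a splice site with another long circle, a count that was not made for other exonic circles. The 631 circles used 426 acceptors and 489 donors, and 429 of them shared an acceptor or a donor with another long circle. In 397 (62.9%) the acceptor also served a shorter exonic circle, and in 394 (62.4%) the donor did. Both sites served shorter circles in 262, and neither did in 102. Tasp1, which encodes a protease that cleaves the histone methyltransferase MLL, had 7 long circles from a single acceptor. Cdk14, a cyclin-dependent kinase gene, Asap1, a gene for a GTPase-activating protein of Arf, and Lpp, which encodes a LIM protein of focal adhesions, each had an acceptor that served 6. The Atxn1 exon 2 acceptor served 4 circles with 2495 reads.

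At 2 of these sites, pairs of circles differed by a few bases. In Tasp1, donors 13 bases apart were joined to the same acceptor. The annotated donor, at the end of exon 10, had 363 reads and the other, inside exon 10, had 337 reads, each in all 9 libraries. The end of exon 10 shows the relation, with the 13 bases that only the annotated form contains in capitals.
Tasp1 exon 10, last 30 bases, minus strand: acccctactccacagctGTGAGTACCTCAG
In Atxn1, acceptors 3 bases apart were joined to the exon 6 donor, with 291 reads in 7 libraries for the annotated one and 36 reads in 2 libraries for the other. The first bases of exon 2, with the 3 bases that only the annotated form contains in capitals, are as follows.
Atxn1 exon 2, first 15 bases, minus strand: AAGtatcctgcaccg
How reads were assigned between junctions so close together was not checked, so the split within each pair is less certain than the sum.

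Hosts of long circles were long genes, but most long genes had none. Among exonic hosts, 1480 genes were longer than 100 kb and could hold such a circle, and 227 of these (15.3%) did. Of the 227, 223 were protein-coding, 105 gave 1 long circle each, and 42 gave 5 or more, which together made 309 of the 631. Cdk14 had the most (18), followed by Cdkal1 (17), which encodes a tRNA-modifying enzyme, Lpp (15), Agap1 (12), another Arf GTPase-activating protein gene, and Babam2 (11), which encodes a subunit of a BRCA1-containing complex. Adgrl3, Cdh13 and Rbms3 had 10 each. All 631 lay on the strand of the named host. None of the 631 carried a circBase identifier, against 985 (3.04%) of other exonic circRNAs.

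The hosts with the most reads were a different set, except Cdk14. Atxn1 encodes ataxin-1, a nuclear protein whose human form is expanded in a spinocerebellar ataxia. It had 2561 reads in long circles, 91.8% of all its circular reads. Cdk14 had 1562 (52.2%), and Ghr, the growth hormone receptor gene, had 1303 (42.4%). Bnc2, which encodes the zinc finger protein basonuclin 2, had 1264 (29.5%), and Meis2, a homeobox transcription factor gene, had 1057 (75.5%). Tasp1 had 1048, which were 9.03% of its circular reads. The Atxn1 circles from exon 2 to exons 4, 5 and 6 held no coding base of the transcript. The Meis2 circle of 338 nt and the Bnc2 circle of 465 nt (exons 2 to 4) were coding throughout.

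Most long circles were seen once. The smallest count above 0 in the table is 2 reads, so a circle with 1 read in a library appears there as 0. Of the 631, 409 (64.8%) were listed in 1 library, and these held 15.4% of the long-circle reads. Of other exonic circRNAs, 59.0% were listed in 1 library, with 7.25% of their reads. At the other end, 13 long circles (2.06%) were listed in all 9 libraries with 30.3% of the long-circle reads, against 4.40% of other exonic circRNAs with 62.0% of their reads. The 13 included 2 circles each of Atxn1, Bnc2 and Tasp1 and 1 each of Meis2, Ghr, Cdk14, Cpq and Gli3. The median total was 13 reads for a long circle and 14 for another exonic one. The 12 with the most reads held 32.9% of all long-circle reads, and the top 50 held 61.1%.

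**Figure D1:**
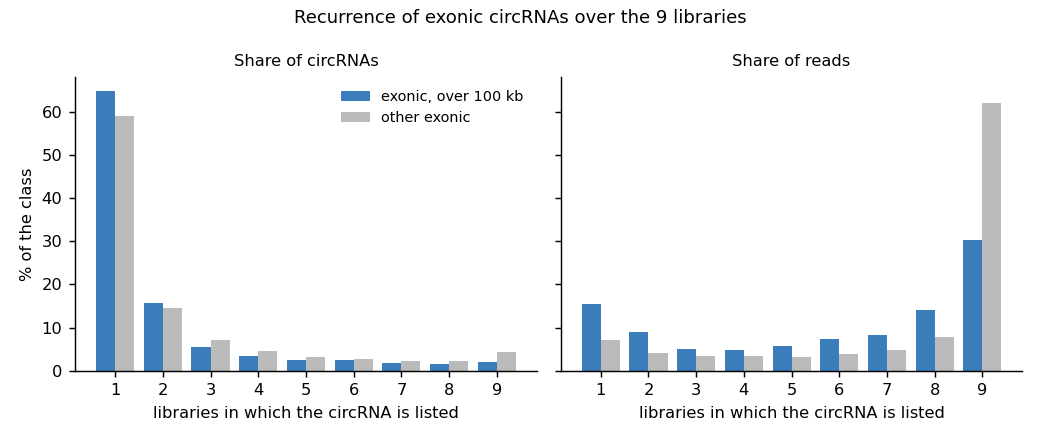
Share of exonic circRNAs (left) and of their reads (right), in percent of each class, by the number of libraries that list the circRNA, with circRNAs over 100 kb in blue and other exonic circRNAs in grey. Circles in all 9 libraries hold 30.3% of the reads of the long class and 62.0% of the reads of the other class.

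Within every library, a listed long circle had fewer reads and was less often seen elsewhere. The mean log2 read count per listed circle was 3.69 ± 0.25 for long and 3.91 ± 0.22 for other exonic circles (SD, n = 9 libraries), a difference of -0.22 that was negative in 9 of 9 libraries. Of the long circles listed in a library, 67.4% ± 4.39 were listed in another library too, against 74.9% ± 2.71 of other exonic ones, a difference of -7.51 percentage points, again negative in 9 of 9. Each had an exact two-sided sign-flip p of 0.0039, the smallest that 9 libraries can give. Against other circles of the same hosts the differences were -0.57 and -18.0. The long circles in 5 or more libraries numbered 66, of which 64 (97.0%) had both ends at exon edges, and those in 1 library numbered 409, of which 365 (89.2%) did.

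The library totals were 208787 to 443955 back-splice reads, and 79 to 167 long circles were listed per library. As a check of the labels, circRNAs of 14 muscle genes, of which 12 had reads and Myod1 and Myog were at 0, summed to 663 to 888 CPM (reads per library scaled to the same total) at day 0, 10779 to 11958 at day 3 and 11984 to 16117 at day 6. Circles of 7 genes of proliferating cells summed to 7458 to 9967, 1737 to 2105 and 556 to 1006 CPM at days 0, 3 and 6. The 5 leukocyte and 5 endothelial markers were all at 0, and 1 of 5 markers each of neurons, adipocytes and osteoblasts had reads. In bulk libraries a change in the number of cells of a type and a change in RNA per cell cannot be told apart.

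Long circles took a larger share of the reads in differentiating cells. They held 1.05%, 1.08% and 1.07% of the reads in the day 3 libraries and 1.06%, 1.01% and 1.05% in the day 6 libraries, against 0.736%, 0.646% and 0.743% at day 0. No day 3 or day 6 library overlapped day 0, and the 95% Wilson intervals of single libraries reached up to 0.776% at day 0 and down to 0.971% at day 6. These intervals cover counting error only, since reads without molecular identifiers are not independent molecules. The mean was 1.07% ± 0.016 at day 3 and 1.04% ± 0.028 at day 6, against 0.708% ± 0.054 at day 0 (SD, n = 3 each), ratios of 1.51 and 1.47. With 3 libraries against 3 an exact permutation test cannot go below p = 0.1, and both differences gave that value (0.15 adjusted over 3 comparisons). Day 6 and day 3 differed by -0.03 percentage points (exact permutation p = 0.2). Both days together against day 0, a grouping chosen after seeing the data, gave the smallest p that 6 libraries against 3 allow (0.0119, exact permutation test, two-sided).

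**Figure D2:**
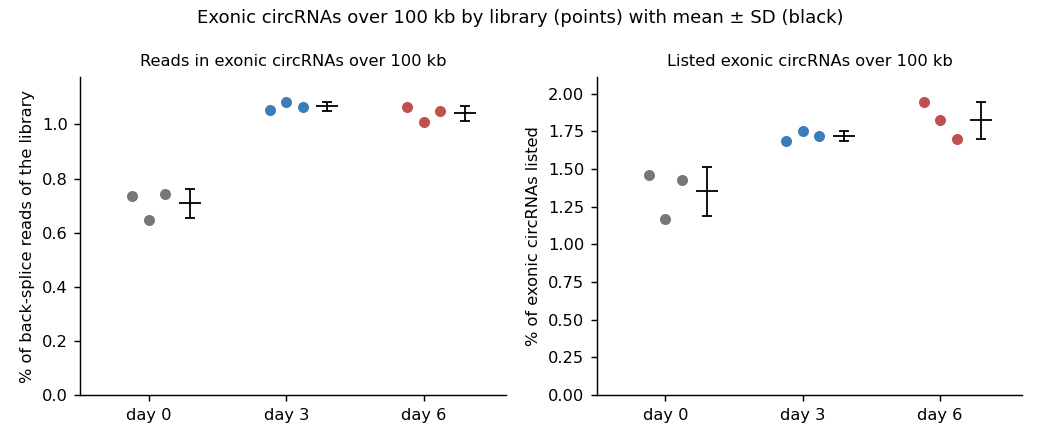
Percent of back-splice reads in exonic circRNAs over 100 kb (left) and percent of the listed exonic circRNAs that span over 100 kb (right), for each of 3 libraries at days 0, 3 and 6 (points), with the mean and SD in black. The day 0 libraries lie between 0.646% and 0.743% of reads, and all day 3 and day 6 libraries lie at or above 1.01%.

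The larger share was not that of the 5 circles with the most reads alone, but it lay in circles listed in more than 1 library. Those in 2 or more libraries held 0.935% ± 0.029 of the reads at day 3 and 0.893% ± 0.022 at day 6, against 0.551% ± 0.015 at day 0. The 409 listed in 1 library held 0.132% ± 0.028 and 0.148% ± 0.012, against 0.157% ± 0.041, with overlapping groups. The number of libraries comes from these same counts, so this split is a description. Without the 5 circles with the most reads (2 of Atxn1 and 1 each of Meis2, Bnc2 and Ghr), long circles held 0.831% ± 0.020 of the reads over days 3 and 6 (n = 6), against 0.624% ± 0.031 at day 0 (n = 3), a ratio of 1.33 (exact permutation p = 0.0119, added after seeing the data). The number of long circles in a library can depend on its depth, so it is given as a share of the exonic circles listed. This was 1.72% ± 0.034 at day 3 and 1.82% ± 0.12 at day 6, against 1.35% ± 0.16 at day 0, with no overlap (exact permutation p = 0.1 each). Listed in all 3 libraries of a day were 18 long circles at day 0, 46 at day 3 and 46 at day 6. The number at day 0 is limited by replicate 2, which listed only 79 long circles from 230183 reads. Depth alone does not set such numbers, since day 6 replicate 1 listed 132 from 208787 reads. They were not set beside those of other exonic circles.

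Other circles of the same hosts also took a larger share in every later library. All other circRNAs of the 227 hosts together held 16.4% ± 0.19 of the reads at day 3 and 17.4% ± 0.63 at day 6, against 13.6% ± 0.42 at day 0. Among all circular reads of these hosts, long circles were 6.12% ± 0.043 at day 3 and 5.66% ± 0.26 at day 6, against 4.96% ± 0.32 at day 0, again with no overlap. All of these comparisons gave an exact permutation p of 0.1. The 227 hosts were defined by a long circle listed in any of these same libraries, most of which are from days 3 and 6. Hosts with more circular reads on those days could enter more easily, so these shares are a description.

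The larger share was graded with span. Exonic circles of 1 to 5 kb and of 5 to 10 kb held 0.953 and 0.941 times their day 0 share at day 3. The ratio was 0.997 at 10 to 25 kb, 1.09 at 25 to 50 kb, 1.25 at 50 to 100 kb, 1.51 at 100 to 200 kb and 1.50 above 200 kb. Circles under 1 kb departed from this order with a ratio of 1.15. At day 6 the ratios from 1 to 5 kb upward were 0.959, 0.946, 1.02, 1.11, 1.18, 1.48 and 1.41, and 1.01 under 1 kb. Above 200 kb the libraries overlapped, with 0.124%, 0.133% and 0.133% of reads at day 3 and 0.094%, 0.138% and 0.134% at day 6, against 0.126%, 0.056% and 0.077% at day 0. The span classes share their libraries and sum to the exonic reads, so the ratios are a description.

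**Figure D3:**
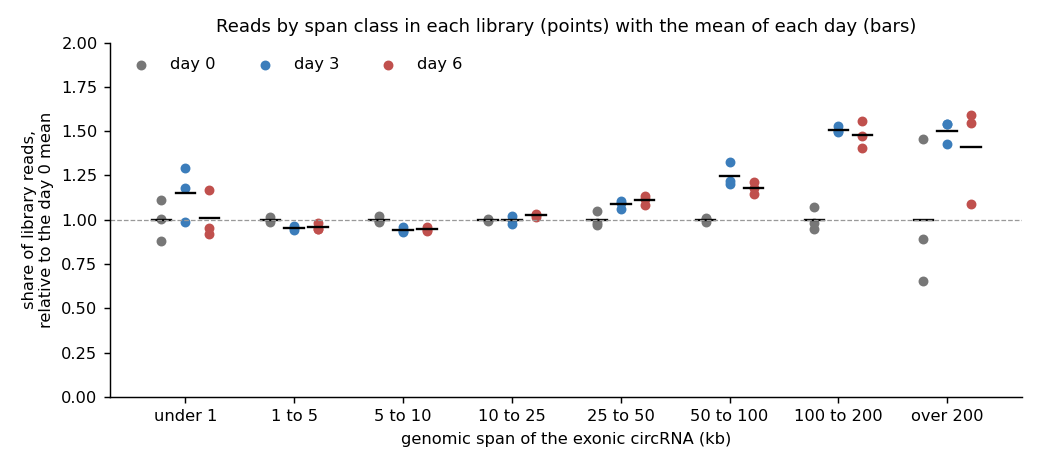
Share of a library's back-splice reads in exonic circRNAs of each class of genomic span, relative to the mean of the 3 day 0 libraries, for each library at days 0, 3 and 6 (points) with the mean of each day (black bars). The class of 100 to 200 kb lies at a mean of 1.51 at day 3 and 1.48 at day 6, and the class of 1 to 5 kb at 0.953 and 0.959.

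Few single long circles had enough reads for a test. A filter on low counts kept 108 of the 631, from 61 hosts and with 73.8% of the long-circle reads, and 523 were not tested. With edgeR's quasi-likelihood test and Benjamini-Hochberg adjustment over all 8153 circRNAs that passed the filter, 4 long circles were higher at day 3 than at day 0 and 0 were lower, with 1.58% of all tested circRNAs called (1.31% higher and 0.27% lower). At day 6 against day 0, 5 were higher and 0 lower, with 1.99% called (1.47% higher and 0.515% lower). DESeq2 called 11 at day 3 and 12 at day 6, in either direction, with 6.04% and 10.0% of all it tested called. Between day 6 and day 3, 0 were called by edgeR (0.0613% of all tested circRNAs called) and 0 by DESeq2 (0.389% called). An unadjusted p under 0.05 was reached by 3 of 108, 2.78% of them, against 4.34% of all tested circRNAs. The median fitted log2 difference of the 108 was 0.76 at day 3 and 0.95 at day 6 against day 0, and 0.12 and 0.01 over all tested circRNAs. With circles absent from a whole day set at the bound given by 3 reads per library, the medians were 0.41 and 0.72, against 0.07 and 0. These medians leave out the 523 untested circles. The filter could also let a circle in through only the days on which it was high. Of the 108, 30 were at 0 throughout a compared day for day 3 against day 0, and 35 for day 6 against day 0. The medians are therefore a description.

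The circle with the clearest change was that of Cdh13, which encodes T-cadherin, a cadherin anchored to the membrane by a lipid and without a transmembrane part. The circle of exons 7 to 10 (757 nt over 147259 bp, with introns of 126991 bp before it and 46142 bp after it) had 334, 193 and 425 CPM at day 3 and 166, 312 and 286 CPM at day 6, against 15.6, 0 and 15.9 CPM at day 0. No day 3 or day 6 library came near day 0, whose 3 libraries held 9 reads in all. The log2 difference to day 0 was 4.84 ± 0.83 (SE) at day 3 and 4.53 ± 0.83 at day 6 (edgeR adjusted p = 8.7e-05 and 1.6e-04). A second circle from the same acceptor, to exon 11, described here after its values were seen, was at 0 in all day 0 libraries, in 1 of 3 at day 3 (41.7 CPM), and at 67.4, 52.7 and 90.0 CPM at day 6, and did not pass (edgeR adjusted p = 0.35 at day 6).

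The Bnc2 circle of exons 2 to 4 had 295, 494 and 803 CPM at day 3 and 234, 560 and 350 CPM at day 6, against 81.2, 57.8 and 47.8 CPM at day 0. The groups did not overlap, although day 3 replicate 3 was high. The log2 difference was 3.08 ± 0.55 at day 3 and 2.60 ± 0.54 at day 6 (edgeR adjusted p = 1.5e-04 and 0.0011). The circle of exons 2 to 3, from the same acceptor, did not follow it. It had 154, 87.6 and 223 CPM at day 3 and 40.4, 85.2 and 18.9 CPM at day 6, against 90.6, 251 and 91.5 CPM at day 0, with log2 differences to day 0 of 0.10 ± 0.95 and -1.58 ± 0.98 (adjusted p = 1 and 0.41). Of the reads of the pair, the longer circle held 65.7%, 84.9% and 78.3% at day 3 and 85.2%, 86.8% and 94.9% at day 6, against 47.3%, 18.8% and 34.3% at day 0. This pair was singled out after its values were seen, and its split was not tested.

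The next called circles came from Ghr, which encodes the receptor that carries the signal of growth hormone into the cell. The circle of exons 2 to 8 (820 nt over 130035 bp) had 638, 446 and 336 CPM at day 6, against 175, 57.8 and 115 CPM at day 0, with a log2 difference of 2.02 ± 0.52 (edgeR adjusted p = 0.018). At day 3 it had 385, 316 and 440 CPM, also above all day 0 libraries. The difference of 1.70 ± 0.51 did not pass (adjusted p = 0.087). The circle of exons 2 to 7, one exon shorter, was at 0 in all day 0 libraries and had 96.3, 49.1 and 173 CPM at day 3 which is at least 9.68-fold higher against a floor of 3 reads per library (adjusted p = 0.048). At day 6 it had 108, 52.7 and 85.2 CPM, at least 7.47-fold above that floor (adjusted p = 0.055). This shorter circle passed the count filter only through later libraries, so its adjusted p-values are a description.

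One circle each of Dync1i1 and Rere that passed was at 0 throughout day 0, although other long circles of both hosts had reads there. Both circles passed the count filter only through later libraries, so their adjusted p-values are a description. Dync1i1 encodes an intermediate chain of cytoplasmic dynein, the motor that walks to the minus end of microtubules. Its circle of exons 6 to 10 had 77.0, 158 and 26.4 CPM at day 3 and 189, 0 and 194 CPM at day 6, at least 7.94-fold and 11.6-fold higher than the floor (adjusted p = 0.049 and 0.025), although 1 day 6 library had no read. Rere encodes a co-regulator of transcription that acts with nuclear receptors. Its circle of exons 4 to 12 had 98.8, 60.9 and 204 CPM at day 6 (at least 11.0-fold above the floor, edgeR adjusted p = 0.046), and 73.8, 24.5 and 70.4 CPM at day 3 (adjusted p = 0.13). The Rere circle of exons 3 to 11, described here after its values were seen, lay the other way. It had 0, 52.6 and 0 CPM at day 3 and 58.4, 73.0 and 40.2 CPM at day 6, against 71.8, 247 and 51.7 CPM at day 0, with log2 differences of -2.80 ± 1.65 and -1.11 ± 1.56 that did not pass (edgeR adjusted p = 0.44 and 0.99).

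**Figure D4:**
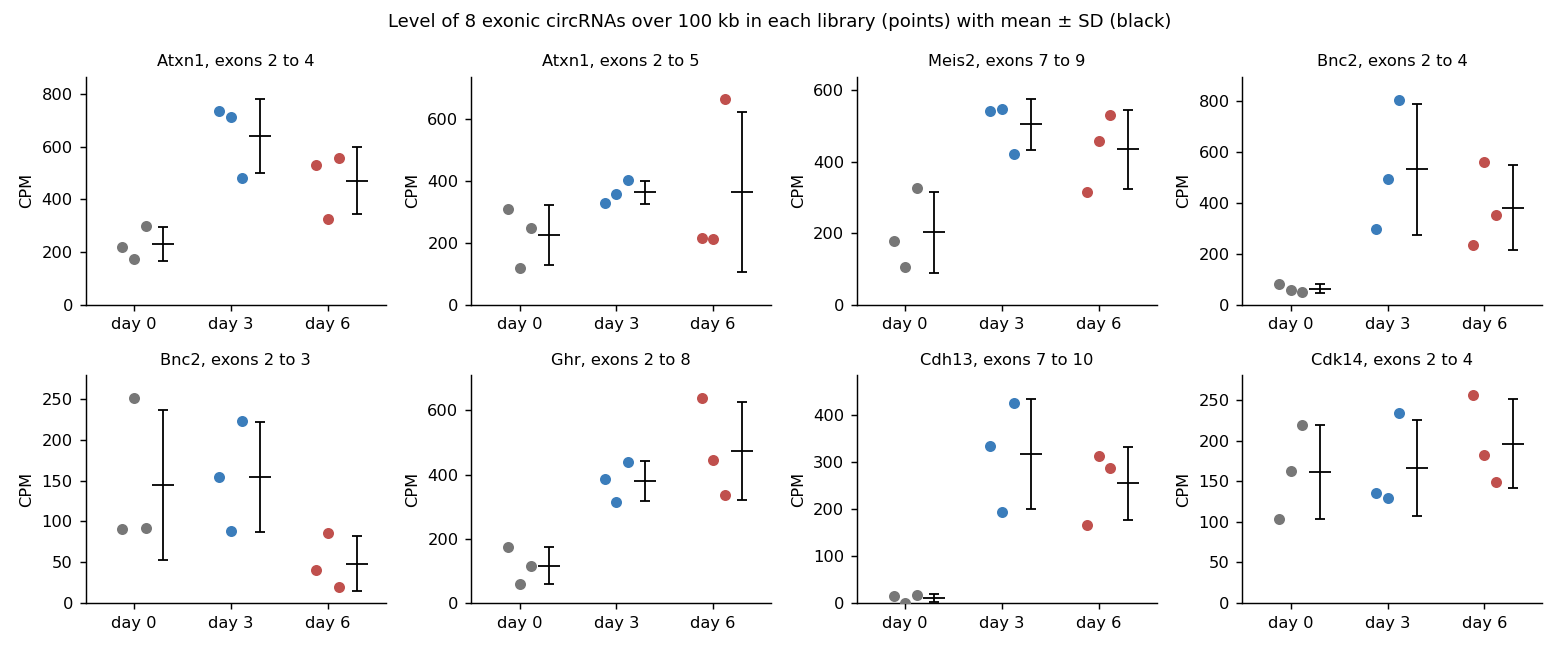
CPM of 8 exonic circRNAs over 100 kb in each library at days 0, 3 and 6 (points), with the mean and SD in black, each panel on its own scale from 0. Cdh13 exons 7 to 10 and Bnc2 exons 2 to 4 lie at 0 to 15.9 and 47.8 to 81.2 CPM at day 0 and at or above 166 and 234 CPM in every later library, and Cdk14 exons 2 to 4 overlaps between days.

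The calls were of unequal strength, and the count filter could favour circles that were high on later days. That limit also holds for the Cdh13 circle, which had few reads at day 0. The Cdh13 calls were lost under 1 of 15 alternatives, a fit of only the 2 days compared (adjusted p = 0.064 at day 3 and 0.081 at day 6). The Bnc2 call was kept under all 15 at day 3 and was lost under that same fit at day 6 (adjusted p = 0.059). The Ghr exons 2 to 8 call at day 6 was lost under 5 of 15, which included leaving out day 0 replicate 2, day 6 replicate 1 or day 6 replicate 2, with adjusted p up to 0.20. The Ghr exons 2 to 7 call was lost under 12 of 15 (up to 0.33), the Dync1i1 call at day 3 under 11 of 15 (up to 0.26) and the Rere call under 11 of 15 (up to 0.31), leaving out any day 0 library among them. The Dync1i1 call at day 6 was lost under 3 of 14 (up to 0.11), without day 6 replicate 1 or day 6 replicate 3 among them.

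The most abundant long circle, Atxn1 exons 2 to 4 (379 nt over 161067 bp), had 735, 712 and 481 CPM at day 3 and 530, 325 and 559 CPM at day 6, against 219, 174 and 299 CPM at day 0. Every later library was above every day 0 library, and the log2 differences were 1.48 ± 0.42 (edgeR adjusted p = 0.0501) and 1.03 ± 0.41 (adjusted p = 0.30), neither of which passed. The circle that takes in exon 5 as well had 327, 358 and 402 CPM at day 3 and 216, 211 and 663 CPM at day 6, against 309, 120 and 247 CPM at day 0. One day 6 library stood high and the other two lay within the day 0 range (adjusted p = 0.69 and 0.58). Meis2 exons 7 to 9 had 543, 547 and 422 CPM at day 3 and 314, 458 and 530 CPM at day 6, against 178, 104 and 326 CPM at day 0, and its day 0 range overlapped day 6 but not day 3 (log2 difference 1.31 ± 0.46 and 1.10 ± 0.46, adjusted p = 0.24 and 0.34).

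The other long circles with the most reads, or in all 9 libraries, did not pass in any comparison. The Asap1 circle of exons 2 to 5 averaged 272 ± 107 CPM at day 3 and 226 ± 95.1 at day 6, against 42.2 ± 38.4 at day 0, with adjusted p of 0.093 and 0.14. The Slc10a7 circle of exons 2 to 10, from a gene for a solute carrier, averaged 310 ± 86.8 and 226 ± 25.8 CPM, against 130 ± 127 at day 0, where 1 library was at 0. The Cdk14 circle of exons 2 to 4 averaged 166 ± 59.1 and 196 ± 54.7 CPM, against 161 ± 57.9, with a log2 difference of 0.05 ± 0.70 at day 3. Fam172a exons 6 to 9 averaged 191 ± 90.4 and 181 ± 72.9 CPM, against 109 ± 94.8. Cpq exons 3 to 5, from a gene for a carboxypeptidase, averaged 222 ± 36.4 and 159 ± 95.8 CPM, against 125 ± 72.2. Gli3 exons 2 to 4, from a transcription factor gene of the Hedgehog pathway, averaged 94.6 ± 54.8 and 55.4 ± 45.5 CPM, against 128 ± 72.6.

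Summing the long circles of each host gave 97 host sums that could be tested among 4225 rows, in which the other circles of each host form a row of their own. At day 3 against day 0, 6 host sums were higher and 0 lower (edgeR, adjusted p under 0.05), with 3.86% of all rows called (2.98% higher and 0.876% lower). At day 6, 5 were higher and 1 lower, with 5.51% called (3.74% higher and 1.78% lower). DESeq2 called 8 at day 3 and 10 at day 6, in either direction, with 8.74% and 13.9% of its rows called. Between day 6 and day 3, 0 were called by edgeR (0.071% of all rows called) and 0 by DESeq2 (0.483%), and 5 of 97 (5.15%) had an unadjusted p under 0.05, against 5.92% of all rows. The median with absent sums at their bound was 0.45 at day 3 and 0.29 at day 6, against -0.02 and -0.11 over all rows. The same filter chose these sums, so their medians are a description as well. Sums with few reads at day 0, such as those of Dync1i1 and Cdh13, could enter through later libraries, and their calls share that limit. Of the hosts of called circles, Cdh13, Bnc2, Ghr and Dync1i1 also passed as sums in at least 1 comparison, and Rere did not. Besides these, the sums brought in Atxn1 and Adgrl3 upward and Tasp1 downward.

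The long Atxn1 circles summed to 1423, 1311 and 1110 CPM at day 3 and to 870, 947 and 1311 CPM at day 6, against 540, 387 and 536 CPM at day 0. The log2 difference was 1.39 ± 0.27 at day 3 and 1.10 ± 0.26 at day 6 (edgeR adjusted p = 5.6e-04 and 0.0064). Its other circles had 75.0 ± 39.4 CPM at day 3 and 83.3 ± 74.3 at day 6, against 110 ± 56.3 at day 0, and did not pass (adjusted p = 1 and 0.97). Without day 6 replicate 3 the Atxn1 difference at day 6 fell to 0.87 and lost its call (adjusted p = 0.10). Cdh13 sums were 384 ± 107 CPM at day 3 and 523 ± 76.8 at day 6, against 25.9 ± 32.7 at day 0 (log2 3.80 ± 0.64 and 4.25 ± 0.65, adjusted p = 1.1e-04 and 1.5e-05). At day 0 these sums rest on 21, 0 and 4 reads, and without day 0 replicate 1 the differences were 5.57 and 6.01. Its other circles differed by 1.88 ± 0.71 and 2.26 ± 0.72, which did not pass (adjusted p = 0.18 and 0.055).

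In Ghr and Dync1i1 both parts were higher. Long Ghr circles summed to 615 ± 72.1 CPM at day 3 and 747 ± 258 at day 6, against 145 ± 95.1 at day 0 (log2 2.06 ± 0.40 and 2.34 ± 0.41), and its other circles differed by 1.65 ± 0.32 and 2.02 ± 0.33. Long Dync1i1 circles summed to 149 ± 28.6 and 194 ± 142 CPM, against 3.80 ± 6.59 at day 0 (log2 5.19 ± 1.27 and 5.58 ± 1.28), and its other circles differed by 1.90 ± 0.32 and 1.45 ± 0.32. All 8 of these passed (edgeR adjusted p from 1.0e-04 to 0.0088 for the long sums). In a fit of only the 2 days compared, both long Dync1i1 sums lost their call (adjusted p = 0.091 and 0.072). Their size rests on 3 reads in day 0 replicate 3, without which the log2 differences were 8.47 and 8.85, and without day 0 replicate 1 they were 4.59 and 4.97. The long Ghr sums were at 2.70 and 2.98 without day 0 replicate 1. Adgrl3 encodes a latrophilin, an adhesion receptor coupled to G proteins. Its long circles summed to 406 ± 110 and 350 ± 77.8 CPM, against 106 ± 39.4 (log2 1.93 ± 0.50 and 1.72 ± 0.50, adjusted p = 0.017 and 0.034), beside 2.42 ± 0.24 and 2.35 ± 0.24 for its other circles.

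Bnc2 and Tasp1 each passed on 1 day. Long Bnc2 circles summed to 728 ± 345 CPM at day 3, against 204 ± 97.7 at day 0 (log2 1.84 ± 0.41, adjusted p = 0.0036), a call that was lost without day 3 replicate 3 (adjusted p = 0.12), and to 484 ± 214 CPM at day 6 (adjusted p = 0.065). Long Tasp1 circles summed to 241 ± 97.0 CPM at day 6, against 628 ± 273 at day 0 (log2 -1.36 ± 0.42, adjusted p = 0.049). This call was lost under 8 of 15 alternatives, with adjusted p up to 0.32. The far more abundant other circles of Tasp1 fell as well, to 3289 ± 474 CPM at day 3 and 3202 ± 49.7 at day 6, against 5576 ± 488 at day 0. Whether the long and the other circles of a host changed by different amounts was not tested. The Adgrl3 call at day 3 was lost under 3 of 15 alternatives and that at day 6 under 6 of 15.

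**Figure D5:**
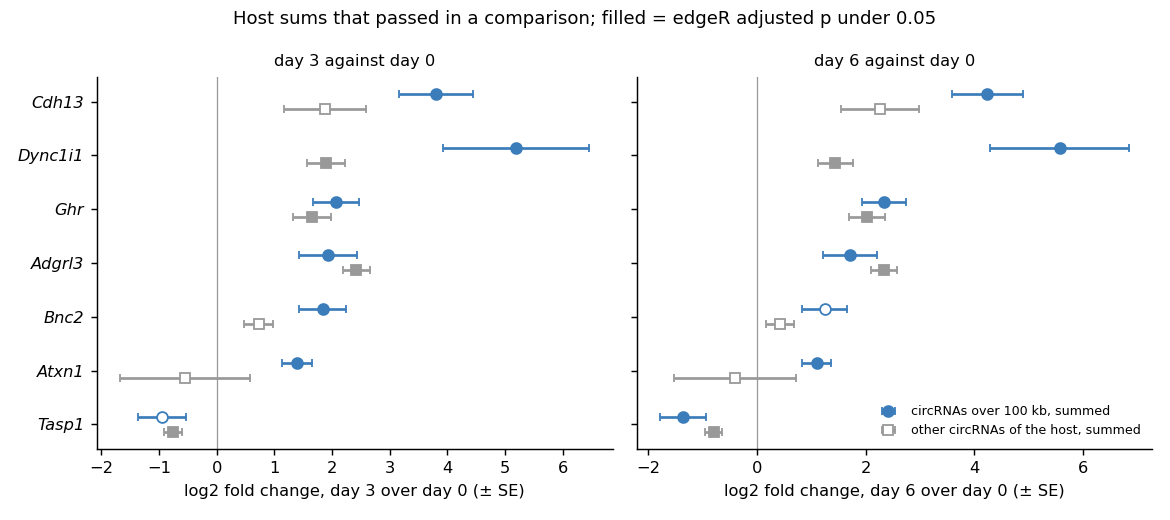
Log2 fold change with SE of the summed circRNAs over 100 kb (blue circles) and of the other circRNAs (grey squares) of 7 hosts, day 3 over day 0 (left) and day 6 over day 0 (right), with filled symbols where the edgeR adjusted p is under 0.05. The long sums of Cdh13 and Dync1i1 lie at 3.80 and 5.19 at day 3, and Tasp1 lies below 0 in both panels.

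Each of 7 functional gene lists contained hosts of long circles. For reference, 227 of all 6704 exonic hosts had one, and 227 of the 1480 longer than 100 kb (15.3%). The lists were chosen with earlier results known and were not matched on host length, so whether they hold more such hosts than other genes was not tested. Of 57 transcription factor and chromatin genes with exonic circles, 19 hosted 45 long circles with 3175 reads, led by Bnc2, Meis2, Gli3 and Nfib. Of their 8 host sums tested, 1 was higher at day 3 (Bnc2) and 0 were called at day 6, and the median log2 difference with bounds was 0.77 and 0.71. Of 49 kinase and phosphatase genes, 13 hosted 49 long circles with 2769 reads, among them Cdk14, Fer and Ptprk (median 0.95 and 1.08, 0 of 5 called). Of 42 regulators of small GTPases, 11 hosted 49 with 1392 reads, led by Asap1, Agap1, Elmo1 and Dock1 (median 0.37 and 0.20, 0 of 7 called).

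Of 43 genes of the cytoskeleton, polarity and adhesion, 15 hosted 45 long circles with 1173 reads, led by Lpp, Tns3, Fndc3b and Pard3. Of their host sums 0 of 5 were called, with a median of 1.39 at day 3 and 0 at day 6. The fitted median at day 6, without bounds, was 3.20, so the 0 depends on how absent sums are set. Of 53 genes of membrane traffic and the ubiquitin system, 9 hosted 31 with 597 reads, led by Exoc4, Dennd1a and Snx29 (0 of 5 called, median -0.97 and 0.76). Of 40 muscle genes, 8 hosted 27 long circles with 472 reads. These were led by Elmo1 and Dock1, whose products activate Rac and are needed for myoblast fusion, and by Celf2 and Dmd, the dystrophin gene, with 4 circles and 49 reads (0 of 4 called, median 0.79 and 1.21). Of 12 very large genes described at common fragile sites, 7 hosted 33 with 1107 reads, led by Lpp, Gphn and Exoc4 (0 of 3 called, median -0.07 and -0.05). The lists overlap in some genes, and the medians stand beside -0.02 at day 3 and -0.11 at day 6 over all host rows.

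The longest circles were rare. Lpp exons 2 to 10 spanned 447179 bp for 1708 nt of exon and had 25 reads in 3 libraries, 1 at day 0 and 2 at day 6. Foxp1, a forkhead transcription factor gene, had a circle over 444879 bp with 13 reads in 1 library, and Rbms3, which encodes an RNA-binding protein, had one of exons 2 to 10 over 431472 bp with 12 reads in 1 library. Next to these, the longest listed in at least 3 libraries were Adgrl3 exons 2 to 6 (320298 bp, 54 reads in 5 libraries, none at day 0) and Lpp exons 2 to 8 (319496 bp, 25 reads in 3 libraries). At the border of 100 kb, the circles just inside included those of Snd1 (100137 bp, 12 reads in 2 libraries) and Babam2 (100193 bp, 116 reads in 6). Just outside were Erc1 (99947 bp, 17 reads in 1), Stk3 (99718 bp, 22 reads in 2) and Snx29 (99650 bp, 17 reads in 1).

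Long circles also differed in the days on which they were listed, which depends on depth for circles of few reads. Of the 631, 142 were listed at day 0 only, 153 at day 3 only and 147 at day 6 only. A further 60 were listed at both days 3 and 6 and at no day 0 library, 35 at days 0 and 3, 21 at days 0 and 6, and 73 at all 3 days. In all, 30 circles were listed in all 6 libraries of days 3 and 6, and 4 of these were at 0 at day 0, where a single read also appears as 0. The same counts were not made for other exonic circles.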

How the data were processed

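Counts of back-splice reads per circRNA and library were used as the authors deposited them, in 1 table of raw counts with locus, type and host. Per the submitters' processing notes, BWA and GRCm38.p4 (mm10) were used. The circRNA caller, its filters, any limit on span and any handling of duplicates are not named in the sources used here. Per the labels' protocols, 1000 ng of TRIzol RNA, cleaned with beads and DNase, entered an mRNA-seq kit. Members and gene lists were chosen with earlier results of these data known. Every count column was mapped to a sample by name. Span was end minus start plus 1, and exon edges, exon numbers and sequences came from GENCODE M21 of the same build. The main test was edgeR 4.0.16 (R 4.3.3), a quasi-likelihood F-test on all 9 libraries with TMM factors, filterByExpr (minimum count 5, minimum total 15), 6 residual degrees of freedom and Benjamini-Hochberg adjustment at 0.05 over all rows tested, repeated on host sums split at 100 kb. CPM used TMM-adjusted totals, and a standard error is the log2 difference over the root of F. Per-library values went through exact permutation tests, two-sided (SciPy 1.17.1). Named circles were the 12 with the most reads, all in 9 libraries, all called, the 3 longest, the 3 on either side of 100 kb, leading hosts, and up to 4 per list. Some circles that this rule names are not reported here. The fit was tested on simulated counts. Alternatives were DESeq2 1.42.0, other filters, library totals, a replicate block, 2-day fits, other span thresholds, exon-edge circles only, 5 reads to be listed, circles of the same hosts, and leaving out each library. Totals of 208787 to 443955 reads put the floor of 3 reads at 7.10 to 13.5 CPM.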

Additional observations from a re-analysis of the deposited data

How the results depend on the processing

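The shares of reads and of listed circles kept their direction under every alternative run. Leaving out each library moved the difference in the share of reads to 0.33 to 0.38 percentage points at day 3 and 0.30 to 0.35 at day 6 against day 0. Counts of called circles moved more, and the cause was not tested. For settings other than DESeq2, the share called over all rows is not set beside the counts of circles and host sums below. Those counts therefore describe the settings and show nothing particular to long circles. At day 3 and day 6 against day 0, in place of 4 and 5, DESeq2 called 11 and 12 (6.04% and 10.0% of all it tested), a minimum count of 10 gave 2 and 3, no filter 2 and 3, a fit of only the days compared 1 and 0, spans over 50 kb 9 and 8, and spans over 200 kb 0 and 0. Leaving out each library gave 2 to 4 and 2 to 5, with 2 at day 3 without day 0 replicate 2, day 3 replicate 1, day 6 replicate 1 or day 6 replicate 3, and 2 or 3 at day 6 without day 0 replicate 2, day 6 replicate 1 or day 6 replicate 3. Host sums called, 6 on each day, were 10 with DESeq2 and 2 in a fit of only the days compared at day 6, and 5 to 7 at day 3 and 5 to 9 at day 6 without each library. The difference in exon edges (0.10) has no settled sign: it was 1.43 for spans over 50 kb (exact sign-flip p = 0.0117), -4.53 over 200 kb, -0.61 with 5 reads to be listed, -3.62 within the same hosts, and -0.31 to 0.54 without each library. Deviations from the day means correlated at -0.03 to 0.01 between same-numbered libraries and at -0.02 to 0.02 between others. Most circles have few reads, so whether same-numbered libraries belong together cannot be told from these correlations. With the replicate block, 4 and 4 circles and 7 and 8 host sums were called at days 3 and 6. The circles were not all the same: Ghr exons 2 to 7 and Dync1i1 at day 3 (adjusted p = 0.11 and 0.058) and Rere at day 6 (0.10) lost their calls with the block. Depth limits the 523 untested circles, for which no change was detectable.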

Other observations

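Intronic and intergenic circRNAs over 100 kb, which entered no comparison above, numbered 265 (223 and 42) with 4069 reads. They held 0.149% ± 0.013 of the reads at day 3 and 0.140% ± 0.016 at day 6, against 0.159% ± 0.049 at day 0 (SD, n = 3 each), with overlapping groups and an exact two-sided permutation p of 0.9 and 0.7. The 2 most abundant long Tasp1 circles, whose donors lie 13 bases apart, split their reads unevenly between libraries. The annotated donor held 41.7%, 52.3% and 62.6% of the pair at day 3 and 75.0%, 89.1% and 56.0% at day 6, against 8.33%, 67.8% and 51.1% at day 0, a description chosen after the values were seen.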
